A study of Caenorhabditis elegans with 4 samples.

Results

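Chromosome IV carried 1012 of the 5374 LIN-35 peaks in the combined list of a chromatin immunoprecipitation and sequencing (ChIP-seq) experiment in Caenorhabditis elegans, and these 1012 regions are described here. They are all the combined peaks placed on chromosome IV by the deposited coordinates, which are on the WormBase WS220 build. Each was set against the peak lists of the single precipitated samples, which held 725 peaks on IV in replicate 1 and 118 in replicate 2. Chromosome IV was then divided into the stretch from position 4500000 to 7000000 (the left stretch, 141 combined peaks), the stretch from 13500000 to 17200000 (the right stretch, 222 peaks) and the rest of the chromosome (649 peaks), a peak being placed by its midpoint.

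The animals were young adult hermaphrodites of the strain YL468, grown at 20 degrees Celsius and fixed with formaldehyde at 2%. They carry unc-119(ed3) on chromosome III and the transgene vrIs93, in which the mex-5 promoter drives LIN-35 joined to GFP and FLAG, together with an unc-119 rescue gene. The labels describe that promoter as specific to the germline, list no allele of the native lin-35 gene and record no outcrossing, so the strain is 1 transgenic line in which only the added copy is tagged. There were 2 samples precipitated with an antibody against GFP and 2 inputs, numbered as replicates 1 and 2, all from whole worms. Nothing in the labels says that the replicates were separate cultures, and a peak list holds no expression values by which the tissue could be checked.

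LIN-35 is the only worm relative of the retinoblastoma protein. It joins E2F and DP proteins with the MuvB core in the DREAM complex, which sits mainly at gene promoters and represses cell-cycle genes and, in somatic cells, genes of the germline program. Chromosome IV is known for its piRNA genes. piRNAs are small RNAs that guide the germline Argonaute PRG-1 to foreign and unwanted transcripts, and most worm piRNA genes lie in the left and right stretches, where each is a tiny transcription unit of its own. No sequence or gene model of the WS220 build was used here, so regions are given by position. Their place relative to exons, introns, promoters and piRNA genes was not analysed here.

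Each peak is known by its start, its end and a q-value (the authors' own, from PeakSeq), which is used below only to rank peaks within 1 list. A low rank number means a low q. All q-values were below 0.01. Read depth is unknown. Peaks are not independent replicates, so intervals and p-values over peaks cover counting error alone, and a region missing from a list was not detected there rather than shown to be unbound. These intervals and p-values also take peaks as placed independently, although many lay in runs.

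The strongest LIN-35 region of the chromosome lay near its right end, just outside the right stretch. It spanned 17279833 to 17281872 on chromosome IV, was 2040 bp wide and had q = 4.22e-59 in the combined list, which placed it 8th in the whole genome. Its peak was 1688 bp wide with q = 1.70e-30 and rank 23 in replicate 1. In replicate 2 it was 1753 bp wide with q = 8.64e-29 and rank 2. It was thus the first peak of chromosome IV in all 3 lists.

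This region had close neighbours. Together with 5 other combined peaks separated by gaps of at most 2 kb it formed a run from 17277121 to 17283400, one of the largest 2 runs on the chromosome, each of 6 peaks. A second strong member of the run, at 17278233 to 17278771, ranked 110 in the combined list and was found in both replicates. Of the 6 peaks, 3 overlapped no replicate peak. The third strongest region of the chromosome lay a little further from the end, at 17249674 to 17250074, and was 401 bp wide. It ranked 28 in the combined list, 26 in replicate 1 (q = 5.01e-28) and 24 in replicate 2 (q = 2.94e-10).

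In all, 12 combined peaks lay beyond the border of the right stretch at 17200000, and 3 of them were found in both replicates. At that border the last peak inside, at 17118667 to 17118669, was 3 bp wide with rank 4268 and overlapped no replicate peak, while the first peak outside was the region ranked 28. At the other 3 borders the nearest peaks on both sides were weak, with ranks from 2427 to 4867.

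The next strongest regions were spread over the chromosome. The second lay at 13239290 to 13240879, with a combined rank of 11, and was 1590 bp wide. Replicate 2 drew it as 1 peak of 1434 bp at rank 6 (q = 3.80e-21). Replicate 1 divided it into 2 peaks, the better of them 961 bp wide at rank 72 (q = 1.12e-17). The fourth lay at 3050245 to 3051083 and ranked 30 in the combined list, 34 in replicate 1 and 10 in replicate 2. Ranks from the replicate lists, which hold 3804 and 558 peaks over all chromosomes, are given side by side and not compared. All 4 regions were among the 100 best peaks of each sample.

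The other 6 of the 10 best were found in both samples too. At 654641 to 655102 the rank was 47 in replicate 1 and 53 in replicate 2. At 4390465 to 4390829 the ranks were 62 and 72, and at 4748445 to 4749438, the best region of the left stretch, they were 60 and 40. The regions at 4049449 to 4049934 and at 1094145 to 1094563 had ranks of 33 and 52 in replicate 1 and of 133 and 166 in replicate 2, which places the last pair outside the 100 best peaks of replicate 2.

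The widest combined peak of the chromosome was also among the 10 best. It lay at 7960179 to 7962457 and measured 2279 bp. Replicate 1 held 2 peaks there, the better of 753 bp at rank 212, and replicate 2 held 1 peak of 426 bp at rank 92. Each replicate covered only a part of it, and with a 50% reciprocal overlap it was found in neither. With 1 library per list, differences between the samples at single regions have no test of their own.

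All 10 best regions of the chromosome overlapped peaks of both replicates, as did all of the 20 best, 43 of the 50 best and 70 of the 100 best. These counts were made on IV only and were not set against the best peaks of the whole list. Over the whole chromosome 97 of 1012 peaks, or 9.58% (95% Wilson interval 7.92 to 11.6), were found in both replicates, against 8.65% of all 5374 combined peaks. The share on IV was therefore close to the background. Peaks of replicate 1 overlapped 577 or 57.0% of the IV peaks (56.9% of the whole list), and peaks of replicate 2 overlapped 114 or 11.3% (10.1% of the whole list). Replicate 1 alone overlapped 480 peaks of IV or 47.4% (48.3% of the whole list), replicate 2 alone overlapped 17 or 1.68% (1.43%), and 418 or 41.3% (38.3 to 44.4) overlapped neither (41.7%).

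Support followed width and q on IV, where alone it was divided in this way, so no trait of IV is shown by it. None of the 357 combined peaks under 100 bp was found in both replicates, which allows a share of up to 0.840% (3 counts of the total), and none of the 297 between 100 and 199 bp was. Of 247 peaks from 200 to 399 bp, 17.4% (13.2 to 22.6) were found in both, and of 111 wider peaks 48.6% (39.6 to 57.8) were. The narrowest combined peak of IV found in both was 220 bp wide, whereas 115 combined peaks of IV were under 20 bp. All 97 peaks found in both lay among the 253 peaks, or 25%, of IV with the lowest q. Width and strength went together over the 1012 peaks, with Spearman's rho = 0.81 between width and the order of q. Both quantities come from the same reads and the same peak calls, so this is a description. A wide peak meets an overlap of 1 bp more easily, and no replicate 2 peak of IV was under 131 bp. The rise of support with width was thus in part set by the rule.

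**Figure D1:**
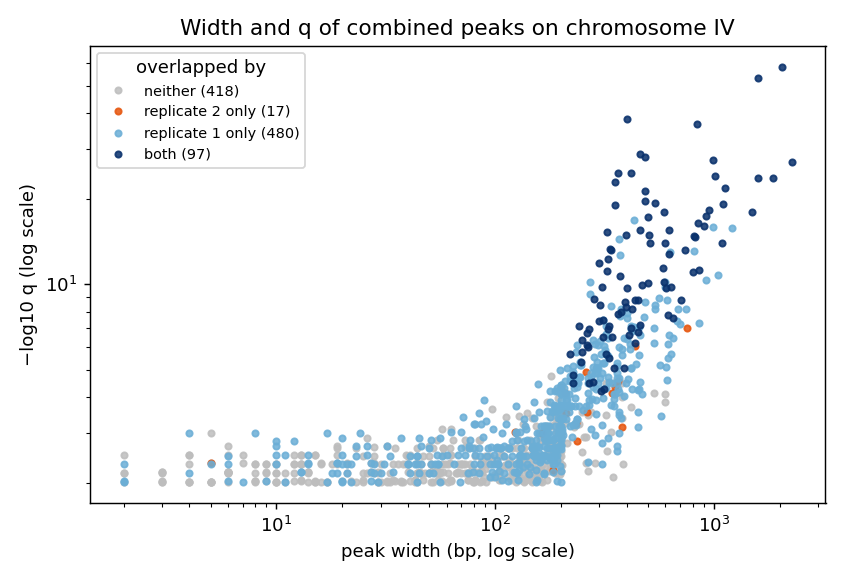
Width of each combined peak of chromosome IV in bp (horizontal, log scale) against −log10 of its q-value (vertical, log scale); each point is 1 peak and the colour says which replicate lists overlapped it. The 97 peaks found in both replicates are all at least 220 bp wide and occupy the upper right, while the 418 found in neither are mostly narrow and low.

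Regions called once in each list were compared in place. There were 88 such regions among the 97. They were selected for overlap, so close midpoints were in part set by that choice. The midpoint of the replicate 1 peak lay a median of 16.5 bp from that of the combined peak, and within 100 bp in 81 of 88. The replicate 2 midpoint lay a median of 32.2 bp away, within 100 bp in 73 of 88. The midpoints of the replicates themselves were a median of 46.8 bp apart and at most 546.5 bp, and within 100 bp in 64 of 88. The combined peaks of these regions had a median width of 401 bp, those of replicate 1 of 330.5 bp and those of replicate 2 of 280.5 bp. Ranks in the replicate lists had Spearman's rho = 0.71 over these 88 regions, which share the 2 libraries and were selected for being called in both.

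**Figure D2:**
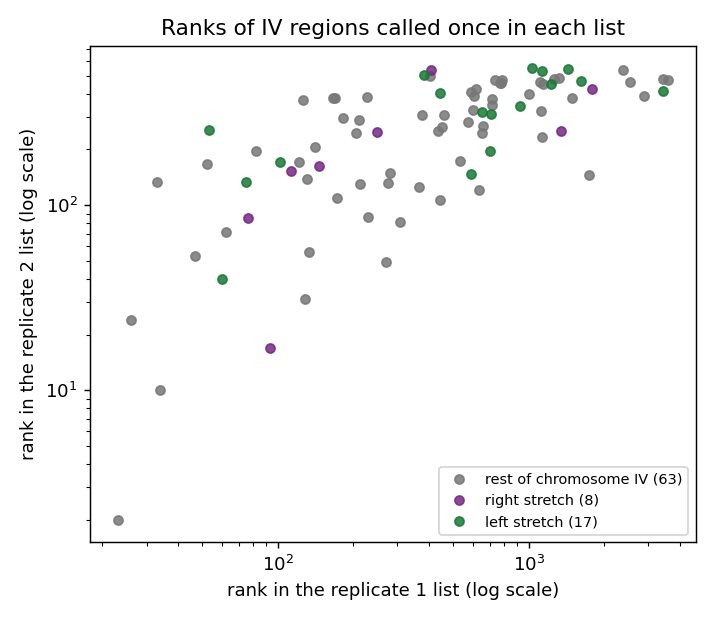
Rank in the replicate 1 list (horizontal, log scale) against rank in the replicate 2 list (vertical, log scale) for the 88 regions of chromosome IV called once in each list, 63 of them in the rest of the chromosome, 17 in the left stretch and 8 in the right stretch. The point nearest the origin is the region at the right end of the chromosome with ranks 23 and 2.

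Combined peaks were about as dense in the piRNA-rich stretches as elsewhere on the chromosome. The left stretch held 56.4 peaks per Mb, the right stretch 60.0 and the rest of IV 57.6. Relative to its share of length, the left stretch held 0.973 times (0.834 to 1.13) its share of peaks and the right stretch 1.04 times (0.920 to 1.16). Both together held 363 peaks, 1.01 times (0.929 to 1.10) their share. None of these ratios differed from 1 past the threshold (adjusted p = 0.818 for each, two-sided exact binomial test with Benjamini-Hochberg adjustment over 3 tests). The intervals allow a ratio of up to 1.16 in the right stretch and do not show equality. Among the 97 peaks found in both replicates, however, 10 lay in the right stretch, 0.487 times (0.269 to 0.847) its share of length (adjusted p = 0.0254, exact binomial test).

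Single windows showed how much the density varied. In windows of 0.5 Mb the left stretch held 21, 28 and 37 combined peaks as the lowest, median and highest of 5 windows, and the right stretch held 19, 28 and 42 over 7 windows. The 22 windows of the rest ranged from 14 to 50, with a median of 27. The fullest window, from 2.5 to 3 Mb, and the emptiest, from 3.5 to 4 Mb, both lay in the rest of the chromosome. The emptiest held no peak with q under 1e-05 and no peak of replicate 2. The ranges of the 3 classes overlapped.

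The density was then read in each sample. In replicate 1 the density was 38.8 peaks per Mb in the left stretch, 42.7 in the right and 41.7 in the rest. In replicate 2 it was 7.20, 3.78 and 7.63 peaks per Mb. The 14 replicate 2 peaks of the right stretch were 0.560 times (0.340 to 0.894) its share of length (adjusted p = 0.0381, two-sided exact binomial test), whereas the 158 of replicate 1 were 1.03 times (0.894 to 1.18) that share (adjusted p = 0.877, same test). The difference between the samples was not tested. Of the 118 best replicate 1 peaks of IV, the number that replicate 2 holds there, 18 lay in the right stretch, 0.720 times (0.466 to 1.08) the share of length (adjusted p = 0.426, exact binomial test). This interval overlaps that of replicate 2.

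**Figure D3:**
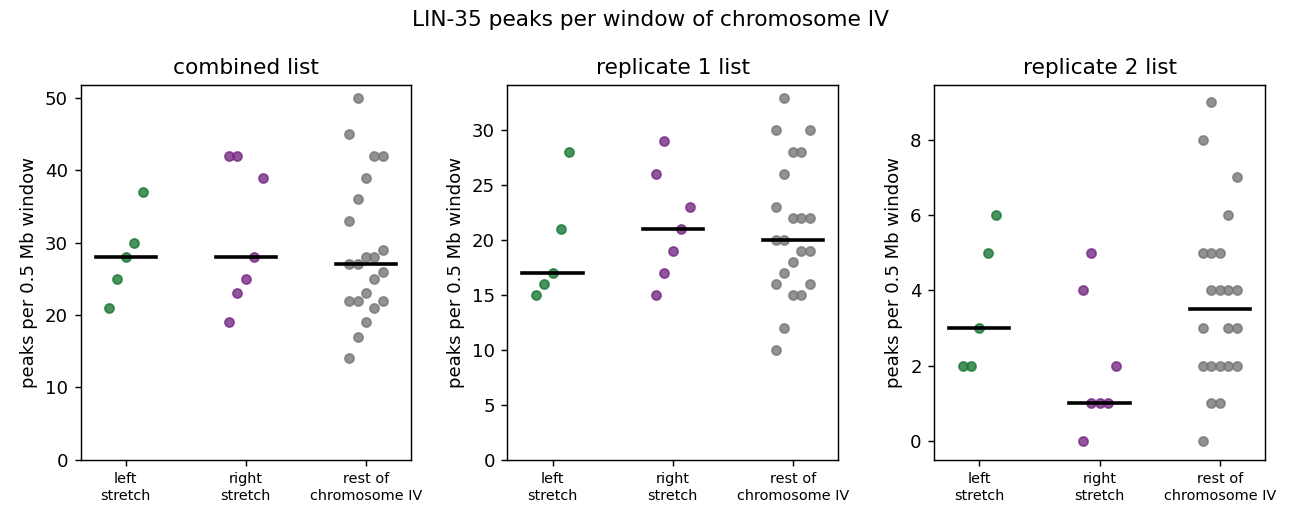
Number of LIN-35 peaks in each whole 0.5 Mb window of chromosome IV (vertical) by class of window (horizontal), in 3 panels for the combined, replicate 1 and replicate 2 lists; each point is 1 window and the bar is the median. Combined medians are 28, 28 and 27 in the left stretch, the right stretch and the rest, and replicate 2 medians are 3, 1 and 3.5.

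Overlap with replicate 2, and with it overlap with both replicates, was lower in the right stretch. Of its 222 combined peaks, 10 or 4.5% (2.46 to 8.09) were found in both replicates, against 70 of 649 or 10.8% (8.63 to 13.4) in the rest of IV. The difference was -6.28 percentage points (95% Newcombe interval -9.60 to -2.09). For overlap with replicate 2 it was -6.93 points (-10.6 to -2.38), and for overlap with replicate 1 it was -2.81 points (-10.4 to 4.66), an interval that includes 0. The 10 peaks found in both are among the 13 that overlapped replicate 2. These differences, the replicate 2 density above and the reverse overlap below draw on the same few peaks and are not separate results. With the right stretch extended by 0.1 Mb, 13 of 232 peaks were found in both, -4.88 points (-8.37 to -0.565) from the rest. The left stretch stood at 17 of 141 or 12.1% (7.67 to 18.5) found in both, 1.27 points (-3.84 to 8.03) from the rest. Its interval with replicate 2 was -5.35 to 6.90 points.

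**Figure D4:**
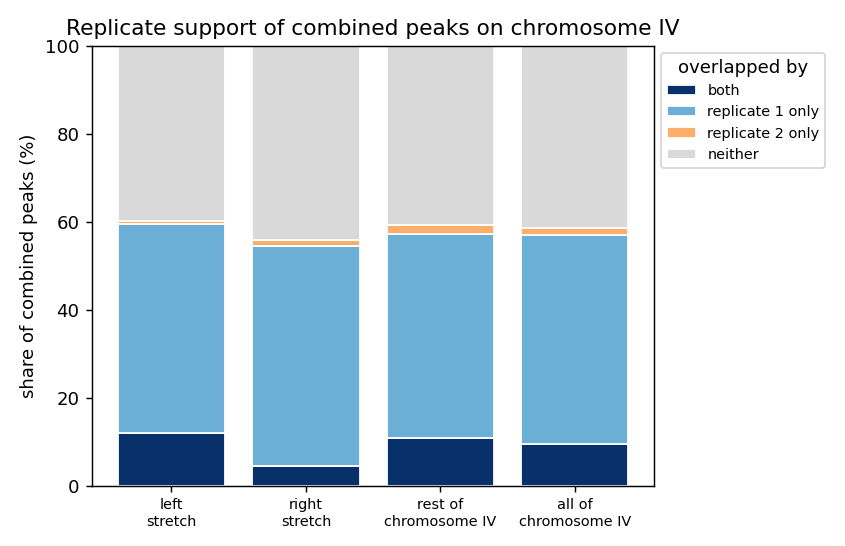
Share of combined peaks (vertical, %) overlapped by peaks of both replicates, of replicate 1 only, of replicate 2 only or of neither, in the left stretch, the right stretch, the rest of chromosome IV and the whole chromosome. The part found in both is 12.1%, 4.5%, 10.8% and 9.58%, and the part found in neither is 39.7%, 44.1%, 40.7% and 41.3%.

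Taken over all ranks, combined peaks of the right stretch had a lower median width and a weaker median rank than those of the rest. Their median width was 113 bp (quartiles 33.5 and 199.75) against 167 bp (75 and 294) in the left stretch and 168 bp (64 and 265) in the rest. Under 100 bp were 43.2% (36.9 to 49.8) of right-stretch peaks, 29.1% of left-stretch peaks and 33.9% of the rest. The difference between the right stretch and the rest was 9.34 points (1.98 to 16.8). The median combined rank was 3195 in the right stretch, 2721 in the left and 2600 in the rest. In replicate 1 the median widths were 135, 185 and 180 bp in the same order. In replicate 2, which holds no IV peak under 100 bp, the 14 right-stretch peaks had a median width of 330 bp, the 18 left-stretch peaks 263 bp and the 86 others 306 bp. Median ranks within replicate 1 were 2225 in the right stretch, 1679 in the left and 1796.5 in the rest. Within replicate 2 the order was reversed, with 223.5 in the right stretch, 373 in the left and 285.5 in the rest.

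Strength divided the density of the right stretch. In the 25% of IV peaks with the lowest q, there were 10.8 peaks per Mb in the right stretch, 18.4 in the left and 14.8 in the rest. In the 25% with the highest q there were 19.5, 14.0 and 13.0 per Mb. With the weaker 50% of IV peaks alone, an alternative added after the data were seen, the right stretch held 1.21 times (1.04 to 1.40) its share of length (adjusted p = 0.0431, exact binomial test). With the better 50% it held 0.858 times (0.711 to 1.03), adjusted p = 0.188 (exact binomial test). Within groups of 25% of IV peaks by q the right stretch was not narrower throughout. From the 25% with the lowest q to the 25% with the highest, the median widths were 405, 170, 93 and 45 bp in the right stretch and 369, 187, 82.5 and 58.5 bp in the rest. Peaks with q under 1e-05 made up 14.0% of the right stretch, 22.0% of the left stretch and 17.9% of the rest. The right stretch differed from the rest by -3.91 points (-8.95 to 1.95) in this share, and from the left stretch by -8.02 points (-16.5 to -0.0663).

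**Figure D5:**
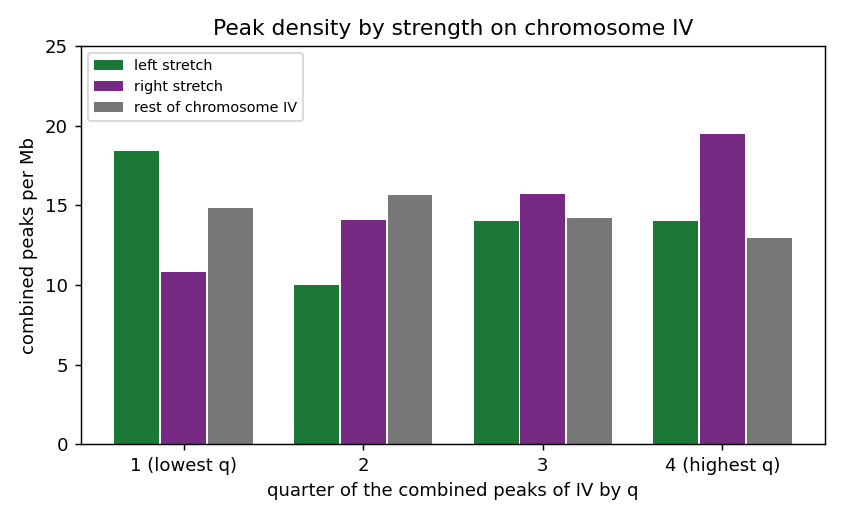
Combined peaks per Mb (vertical) in the left stretch, the right stretch and the rest of chromosome IV, for successive groups of 25% of the 1012 peaks of the chromosome by q (horizontal, lowest q at the left). The right stretch goes from 10.8 per Mb in the first group to 19.5 in the last, and the rest from 14.8 to 13.0.

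Strength and support moved together, so support was also read within 1 group of peaks by q. The q-values of this group still ran from 4.22e-59 to 7.59e-05, so its peaks were not of equal strength. Among the 25% of IV peaks with the lowest q, 10 of 40 right-stretch peaks or 25% (14.2 to 40.2) were found in both replicates, against 70 of 167 or 41.9% (34.7 to 49.5) in the rest and 17 of 46 or 37.0% (24.5 to 51.4) in the left stretch. The difference of the right stretch from the rest was -16.9 points (-30.1 to -0.0943), and for any overlap with replicate 2 it was -15.5 points (-29.6 to 1.59). In this group replicate 1 overlapped 95% of right-stretch peaks and 95.2% of the rest. The part that strength has in the lower support was not tested.

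The 10 right-stretch regions found in both replicates were wide, from 267 to 1857 bp. The best lay at 14032933 to 14034789. It ranked 73 in the combined list, 76 in replicate 1 as a peak of 1851 bp and 85 in replicate 2 as a peak of 1133 bp. The next, at 16415012 to 16416133, ranked 90 in the combined list, 209 in replicate 1 and 178 in replicate 2. Replicate 1 held 2 peaks in it. The better of them ended at 16415408 and the replicate 2 peak began at 16415558, so that these did not touch. The place of the other replicate 1 peak is not given here. The third, at 14070261 to 14071367, ranked 112 in the combined list. The better of its 2 replicate 1 peaks ranked 689 (q = 5.14e-05), and its replicate 2 peak ranked 36 (q = 3.00e-09).

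The highest replicate 2 rank of the right stretch belonged to another region, named after its values were seen. At 13549273 to 13549668 the combined peak ranked 179, the replicate 1 peak 93 (395 bp, q = 2.61e-15) and the replicate 2 peak 17 (391 bp, q = 1.09e-11). The ends of these 3 peaks lay within a few bases of each other.

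In the left stretch the strongest regions were close together. The best region and the second best, at 4749864 to 4750218, belonged to 1 run of 5 combined peaks from 4744229 to 4750218. All 5 of these peaks overlapped replicate 1 and 2 overlapped replicate 2. The second best ranked 53 in replicate 1 (q = 1.74e-20) and 253 in replicate 2 (q = 0.000814). The third, at 4725252 to 4725735, ranked 75 and 134. The best measured 818 bp in replicate 1 and 894 bp in replicate 2, the second best 339 and 252 bp, and the third 484 and 240 bp.

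Peaks of chromosome IV came in runs and left long gaps, which were counted on IV only and not compared with other chromosomes. Neighbouring combined peaks were a median of 7400 bp apart, and 244 of 1011 gaps were at most 2 kb. There were 53 runs of 3 or more peaks, which held 186 peaks: 23 or 16.3% of those in the left stretch, 29 or 13.1% of those in the right stretch and 134 or 20.6% of the rest. The other run of 6 peaks lay near the left end, at 385397 to 390691, where 3 peaks were found in both replicates, and its best peak ranked 219. Of the 4 runs of 5 peaks, the one at 2655115 to 2659171, named after its values were seen, was the weakest, with a best rank of 1313 and 4 of 5 peaks in neither replicate.

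The longest gap, 173826 bp, ran from 14129272 to 14303097 within the right stretch and held 1 peak of replicate 1. The second, 157832 bp, ran from 4819204 to 4977035 within the left stretch and held no peak of either replicate. The third, 154825 bp, ran from 12880700 to 13035524 in the rest of the chromosome and held 1 peak of replicate 1. Long gaps and dense runs thus occurred in each class.

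Some regions were present in only 1 kind of list. The best combined peaks of IV that overlapped neither replicate lay at 2388064 to 2388244 (rank 1063), at 4470015 to 4470337 (rank 1161) and at 6422948 to 6423329 (rank 1168). A replicate 1 peak lay 265, 618 and 1543 bp from them. The best 2 that overlapped replicate 2 alone were in the right stretch, at 15041798 to 15042548 (rank 600, replicate 2 rank 369) and at 15059150 to 15059586 (rank 740, replicate 2 rank 198). The third lay at 12005297 to 12005557 (rank 996, replicate 2 rank 507).

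In the other direction, 591 of 725 replicate 1 peaks of IV or 81.5% (78.5 to 84.2) and 116 of 118 replicate 2 peaks or 98.3% (94.0 to 99.5) overlapped the combined list. These shares are given for IV only and were not set against those of the whole lists. The best replicate 1 peaks outside it lay at 9858201 to 9858493 (rank 1262) and at 15975933 to 15976132 (rank 1383), 640 and 498 bp from the nearest combined peak. The 2 replicate 2 peaks outside it lay at 14071673 to 14072149 (rank 371) and at 7790526 to 7790873 (rank 516), 306 and 379 bp away. All 4 thus lay within 640 bp of a combined peak.

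Replicate 2 was mostly contained in replicate 1 in every class of the chromosome. Of its 118 peaks on IV, 97 or 82.2% (74.3 to 88.1) overlapped a replicate 1 peak: 15 of 18 in the left stretch, 10 of 14 in the right and 72 of 86 in the rest. In reverse, 15.5% of replicate 1 peaks in the left stretch, 6.96% (3.93 to 12.0) in the right and 15.3% (12.3 to 18.9) in the rest overlapped replicate 2. Here too the whole lists were not set beside IV. The best replicate 1 peak of IV that replicate 2 lacked lay at 874699 to 875124, was 426 bp wide and ranked 100 with q = 5.05e-15. In the right stretch the best such peak lay at 15472379 to 15472748 and ranked 177, and a replicate 2 peak lay 639 bp away.

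The arms and the centre of the chromosome were compared to place the right stretch, which fills most of the right arm. Of the combined peaks, 223 lay in the left 25% and 253 in the right 25% (adjusted p = 0.184, two-sided exact binomial test). The central 50% held 53.0% (49.9 to 56.0) of them, which did not pass the threshold (adjusted p = 0.127, exact binomial test); in replicate 2 alone it held 61.0% (52.0 to 69.3) and passed (adjusted p = 0.0419, same test). The left arm of IV had 36.8% of its peaks under 100 bp and 10.8% (7.34 to 15.5) found in both replicates. Against the left arm, the right stretch differed by -6.26 points (-11.4 to -1.30) in peaks found in both and differed by 6.47 points (-2.62 to 15.4) in narrow peaks.

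The pattern of the right stretch had a parallel, in part, on another chromosome. The same relative stretch of each chromosome was compared with the rest of that chromosome, a comparison added after the data were seen. On IV the share found in both replicates was -6.51 points (-9.64 to -2.40) from the rest of the chromosome, here with the left stretch included. On chromosome V it was -6.07 points (-8.92 to -1.02), and narrow peaks were 10.8 points (1.67 to 20.1) more frequent, against 10.2 points (3.03 to 17.5) on IV. Only 4 peaks of the V stretch were found in both. For overlap with replicate 2 the difference on V was -5.70 points (-9.34 to 0.135), an interval that includes 0. On IV it was -6.93 points (-10.4 to -2.47). On V the stretch was also poor in combined peaks, with 0.584 times its share of length, which on IV was 1.04 times. On II the share found in both was 4.83 points (0.553 to 10.1) higher, and on I, III and X the intervals of this difference included 0. Low support in this part of the chromosome was therefore not shown to be particular to IV.

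Chromosome IV as a whole held more peaks than its length alone would give in all 3 lists, and so did chromosomes II and III, by more. It carried 18.8% of combined peaks on 17.5% of the length, a ratio of 1.08 (adjusted p = 0.00825, two-sided exact binomial test over 6 chromosomes). Of the combined peaks of IV, 40.3% lay in runs of 2 or more. Runs were not counted once in this test, so its p-values may be too small. The ratio was 1.09 in replicate 1 (adjusted p = 0.00975) and 1.21 in replicate 2 (adjusted p = 0.0306, exact binomial tests). In the same order of lists the ratio was 1.22, 1.24 and 1.29 on II and 1.40, 1.55 and 1.69 on III, and the differences from IV were not tested. In the better 50% of the whole combined list it was 1.06 (0.976 to 1.14) and did not pass the threshold (adjusted p = 0.170, exact binomial test). The 97 peaks found in both, or 9.58% of IV, compare with 10.6% (8.87 to 12.6) on III, 8.99% on II, 8.51% on V and 8.43% on I, whose intervals overlap that of IV. On X the share was 4.51% (3.23 to 6.26), an interval below that of IV.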

How the data were processed

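ChIP-seq peaks of GFP-tagged LIN-35 came as 3 lists, a combined list and those of replicates 1 and 2. Per the file headers, the authors called peaks with PeakSeq and gave coordinates on WormBase WS220 after a liftover, and each deposited peak has a q-value. For the aligner, the PeakSeq version, its control and the making of the combined list, nothing is stated by header or label. No processed input file was analysed. Lists called at different sensitivity differ in length, so q-values were compared only within 1 list. Chromosome length was the highest peak end in any list (17465941 bp for IV).

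Overlap meant at least 1 bp; of several overlapping peaks the best by q was taken. Counts were tested against length with exact binomial tests, and shares carry Wilson and Newcombe 95% intervals (scipy 1.17.1, Python 3.11.15). Widths and ranks were described without tests. Of the procedures, only the density test of the right stretch and the overlap count were tried on simulated data. Named peaks were chosen by rule: the 10 best of IV, the 3 best of each stretch, the 3 best in neither replicate and in replicate 2 alone, the 3 widest, the 2 best of each replicate outside the combined list, the 3 longest gaps and the 3 largest runs; others were picked with their values in view. The members, stretches and lists were chosen with earlier results of these data known. The gene table at hand is of another assembly and was not joined to these coordinates.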

Additional observations from a re-analysis of the deposited data

How the results depend on the processing

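Directions in the stretches turned on which peaks were counted. The density ratio of the right stretch was 0.858 in the better 50% of IV peaks, 0.487 among peaks found in both replicates and 0.908 among those of at least 100 bp. For both stretches together these ratios were 0.907, 0.784 and 0.972, and for the left stretch 1.22 (found in both) and 1.07 (at least 100 bp). In alternatives chosen once the data had been seen, the left, right and joint ratios were 1.07, 0.720 and 0.859 for the best replicate 1 peaks, 1.22, 0.822 and 0.981 for peaks with q under 1e-05, and the right ratio was 1.21 in the weaker 50%. Of these, the calls were 0.487 (adjusted p = 0.0254) and 1.21 (adjusted p = 0.0431, exact binomial tests). Counting any overlap, narrowing the stretches by 0.25 Mb, extending the right one by 0.1 Mb, comparing matched parts of the chromosome and counting runs once kept each direction with no call. With replicate 1 or 2 left out, ratios ranged from 0.935 to 1.07 (left), 0.560 to 1.03 (right) and 0.764 to 0.991 (both). The cause was not tested.

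The share found in both replicates was 7.11% with a 50% reciprocal overlap, 6.62% with midpoints within 100 bp and 19.2% in the better 50% of IV peaks. The lower right-stretch share found in both kept an interval below 0 in all 6 alternatives, while for replicate 2 the interval reached 0 in the better 50% (-9.48 points, -16.9 to 0.0428) and the best 25% (-15.5 points). These alternatives are not separate checks. The better 50%, the best 25% and peaks of at least 100 bp reused the same 10 right-stretch peaks and 70 of the rest. In the best 25% the interval ended at -0.0943. The left-stretch difference was -4.96 points (both) and -8.55 points (replicate 2) in the best 25%, with intervals that include 0. The ratio of IV to its length was 1.06 in the better 50% of the whole list and 1.09 to 1.21 with 1 replicate left out. The left share of the arms was then 47.6% to 56.5% and the central share 51.6% to 61.0%. Of the 10 best regions, 9 were found in both replicates by reciprocal overlap and 6 by midpoints. No paired analysis was possible because the inputs, whose numbers match those of the precipitated samples, have no peak list among the files used. Genes nearest to peaks were not determined, for want of a WS220 annotation.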
